A study of Mus musculus with 9 samples.

Results

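Interleukins are secreted proteins through which cells signal to each other in inflammation, defence and repair, and each acts through receptor chains on the surface of the responding cell. The transcripts described here are those of 78 interleukin, interleukin receptor and interleukin antagonist genes, out of 22180 genes measured in mouse kidney. They are the genes whose symbol starts with Il and a number and which had a row of the array with 1 gene symbol. The brightest such row was used. This choice by name was made with earlier results of these data known. Total kidney RNA was measured on 9 whole-transcript arrays in 3 groups of 3 samples. The sham group was taken 3 weeks after a sham operation. The CBDL group was taken 3 weeks after ligation of the common bile duct, the duct that drains bile from the liver. The norUDCA-fed CBDL group received norursodeoxycholic acid, a side chain-shortened relative of the bile acid ursodeoxycholic acid, during the 5 days before a ligation of the same length. No sham-operated group given norUDCA was among the samples, and whether feeding continued after surgery is not in the labels. The strain, sex and age of the mice and the dose of norUDCA are not given in the sources used here. Arrays carry the number of their label, so sham_158, sham_159 and sham_160 are the sham arrays, CBDL_164, CBDL_165 and CBDL_170 the ligated ones, and norUDCA_CBDL_172, norUDCA_CBDL_175 and norUDCA_CBDL_179 the fed and ligated ones.

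The interleukin-1 family includes interleukin-1 alpha and beta, interleukins 18, 33 and the 36 group, and its receptors signal through the adaptor MyD88 to NF-kB. The families of the common gamma chain, gp130, the common beta chain, interleukin-10 and interleukin-12, named here by a shared receptor chain or a cytokine, signal through JAK kinases and STAT factors. Receptors of the interleukin-17 family signal instead through the adaptor Act1 and TRAF proteins to NF-kB. Injured tubular epithelium, endothelium, fibroblasts, macrophages and lymphocytes of the kidney can each make or answer some of these proteins. Many interleukin genes are transcribed in few cells, so a whole-kidney signal can lie near the dim end of the array.

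All values are log2 signals, in which a difference of 1 is a 2-fold difference, and a change is a difference between group means with its standard error (SE). A gene was called, and is said to have risen or fallen, when its Benjamini-Hochberg adjusted p over all 22180 genes was under 0.05 in limma, two-sided, and each adjusted p below is from that fit. Nothing in the labels tells whether the 3 samples of a group were 3 animals, so the p-values cover the spread among these samples alone, which may be technical. With 3 arrays in each group, the smallest p an exact permutation test can give is 0.1. Array medians over all rows lay between 5.70 and 5.79. Over the genes analysed they were 6.24 to 6.37 in sham, 6.39 to 6.43 in CBDL and 6.30 to 6.38 in norUDCA-fed CBDL. Kidney markers such as Umod and Slc34a1 were bright in every group. On the second principal component, which held 13% of the variance, the other 7 arrays ranged from -12 to -3.4, while CBDL_165 was at 22.9 and sham_159 at 34.5. Signals under 5.20, the level below which the dimmest 33.3% of genes lie, are called dim here, and 31 of the 78 genes were dim in all 3 groups. In kidney tissue, fewer cells of a type and less RNA per cell cannot be told apart.

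Ligated and sham-operated kidneys were compared to see which interleukin transcripts respond to blocked bile flow. After ligation 15 of the 78 genes rose (19.2%, where 10.3% of all genes rose) and 2 fell (2.56%, where 11.5% of all genes fell). The interleukin-1 family held 8 of the 15, the ligands Il1f6, Il33 and Il1b, the antagonist Il1rn and the receptors Il1r1, Il1rl2, Il18r1 and Il18rap. The others that rose were Il34, Il4ra, Il17rb, Il10ra, Il10rb, Il6ra and Il11, and those that fell were Il15 and Il22ra1. By role, 9 of 34 receptor genes rose and 1 fell, 5 of 37 ligand genes rose and 1 fell, and 1 of 6 antagonist genes rose. More of the ligand genes than of the receptor genes were dim in all groups. Of the 31 genes dim in all groups 0 were called, against 17 of the other 47. The counts by role are not corrected for this. The median change was 0.07 over the 78 genes and -0.06 over all genes. After centring each array on its median, which moved the median change of all genes to -0.16, 14 of the 78 rose and 8 fell. Leaving out any 1 of the 9 arrays kept 15 of the 17 calls, the exceptions being Il1b and Il10rb.

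**Figure D1:**
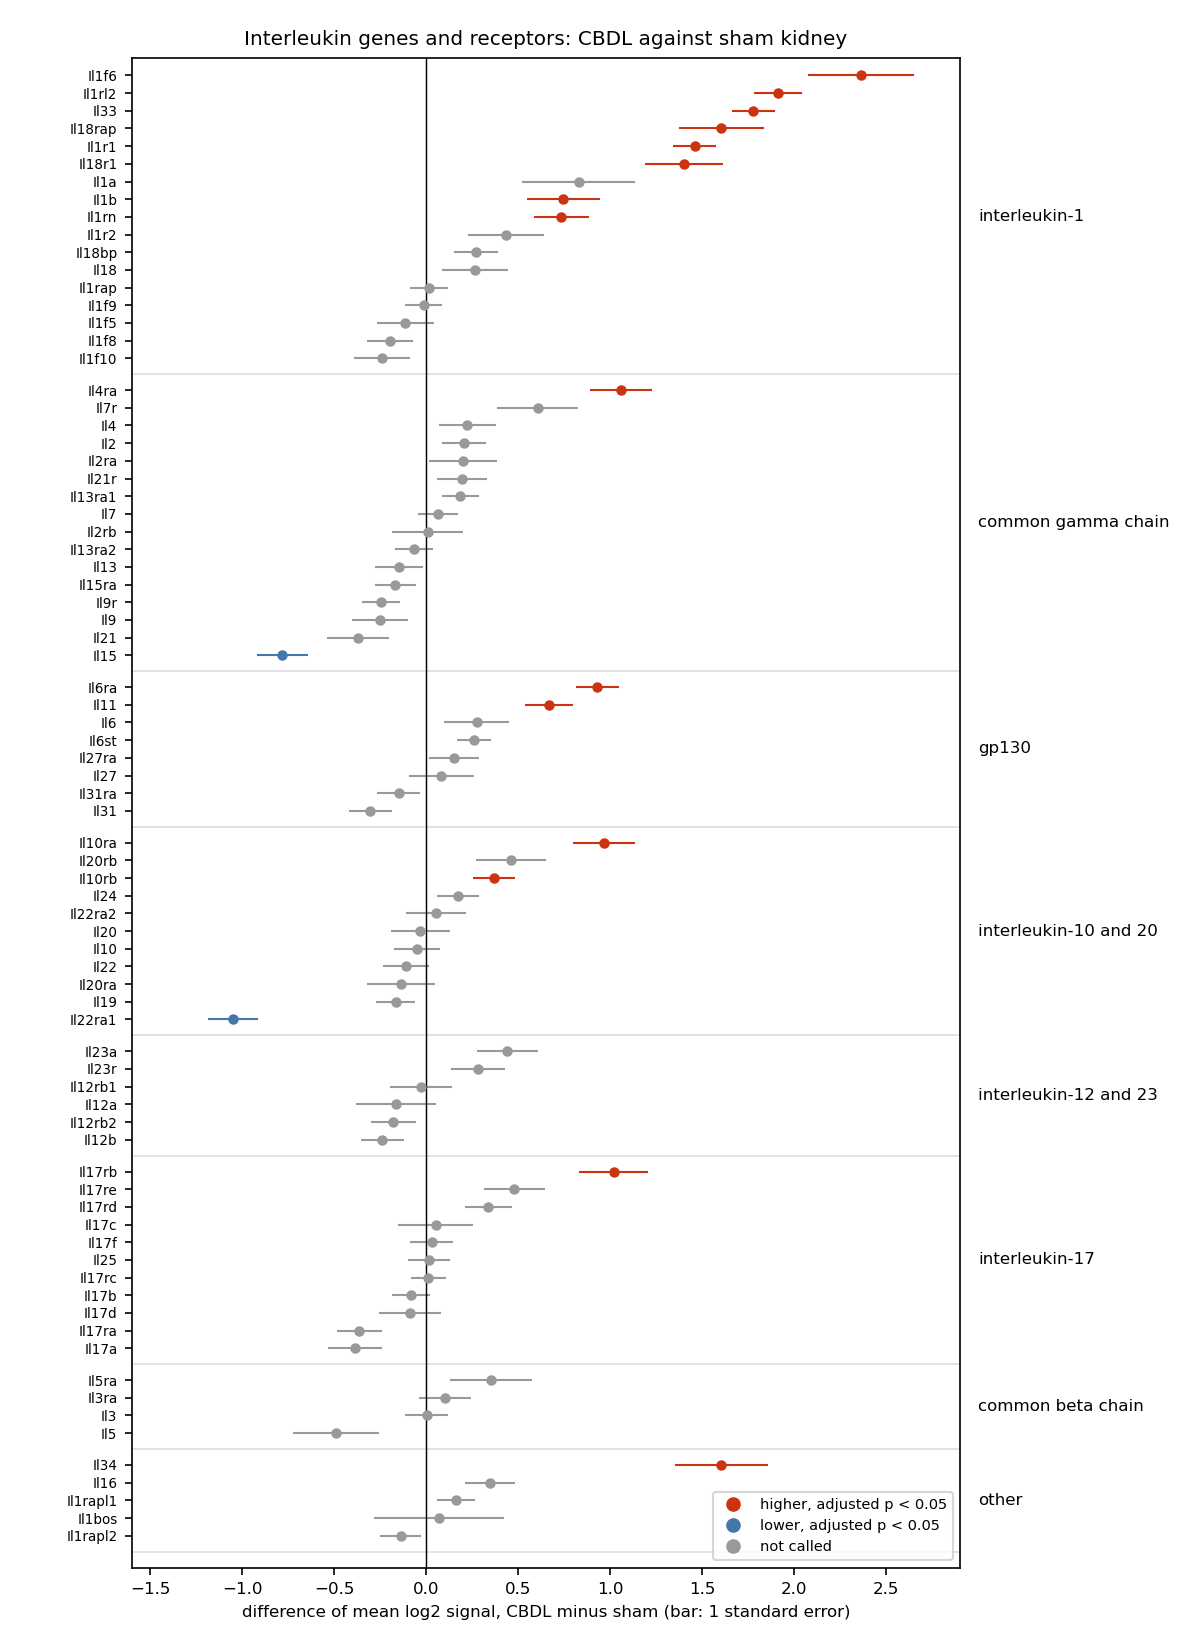
Change in CBDL against sham, in log2 signal, for the 78 genes, grouped by family. Points are differences of group means (n = 3 arrays each), lines are 1 standard error to either side, and colour marks called genes. Il1f6 lies farthest to the right at 2.36 and Il22ra1 farthest to the left at -1.05.

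Il1f6, which encodes interleukin-36 alpha, a cytokine of injured epithelia, had the largest change of the 78 genes. Its signal was 5.24, 5.75 and 4.99 on the sham arrays, 7.27, 7.61 and 8.19 on the CBDL arrays, and 7.73, 6.93 and 7.64 on the norUDCA-fed CBDL arrays. Every ligated array, fed or not, was above every sham array, and the fed and unfed ligated arrays overlapped. Il1f6 rose by 2.36 after ligation (SE 0.29, 5.15-fold, adjusted p = 0.000368). Its receptor gene Il1rl2 stood at 6.0, 6.05 and 5.66 in sham, at 7.71, 8.0 and 7.74 in CBDL, and at 6.78, 6.69 and 6.67 in norUDCA-fed CBDL. The 3 groups did not overlap, with the fed kidneys between the other groups. Il1rl2 rose by 1.91 (SE 0.13, 3.76-fold, adjusted p = 2.82e-05). The other ligands of that receptor, Il1f8 and Il1f9, were dim on all 9 arrays, at 3.59 to 4.15 and 3.73 to 3.96, as was the receptor antagonist gene Il1f5, at 4.26 to 4.89. None of these 3 was called in any comparison.

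Il33 encodes a nuclear cytokine that is released when cells are damaged. It was at 6.91, 6.85 and 6.68 in sham, 8.59, 8.47 and 8.71 in CBDL, and 8.35, 8.08 and 8.38 in norUDCA-fed CBDL. All ligated arrays were higher than all sham arrays, and the fed arrays lay just under the unfed ligated ones. Il33 rose by 1.78 after ligation (SE 0.12, 3.43-fold, adjusted p = 2.82e-05). The gene of its receptor, Il1rl1, had no row with a single symbol and was not analysed here. Il1b, the inflammatory cytokine that inflammasomes release, read 5.49, 5.98 and 5.81 in sham, 6.85, 6.04 and 6.62 in CBDL, and 5.78, 5.98 and 5.87 in norUDCA-fed CBDL. The groups of sham and CBDL were separated by the narrow gap between sham_159 and CBDL_165. The rise of Il1b was 0.74 (SE 0.20, adjusted p = 0.0244). The call ended without sham_158, sham_160, CBDL_164 or CBDL_170, with only the 6 arrays compared, and with variances that were not moderated (adjusted p up to 0.0867). Il1rn, the antagonist that blocks interleukin-1 at its receptor, went from 5.69, 5.06 and 5.21 in sham to 5.99, 6.10 and 6.07 in CBDL, with 5.69, 5.63 and 5.73 in norUDCA-fed CBDL. CBDL lay above both other groups, and Il1rn rose by 0.73 against sham (SE 0.15, adjusted p = 0.00622). Il1a, the cell-associated form of interleukin-1, was at 3.96, 4.09 and 3.91 in sham, 4.57, 5.67 and 4.20 in CBDL, and 4.27, 3.83 and 4.17 in norUDCA-fed CBDL. It was dim on all arrays but CBDL_165, and its difference of 0.83 between CBDL and sham was not called (adjusted p = 0.0867). Il18, a cytokine that inflammasomes also process, differed by 0.26 (adjusted p = 0.337), with overlapping groups.

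Among the receptors of the family, Il1r1, which carries the signal of interleukin-1, was at 7.85, 7.54 and 7.54 in sham, 9.14, 9.21 and 8.95 in CBDL, and 8.27, 8.29 and 8.40 in norUDCA-fed CBDL. The 3 groups were separate, and Il1r1 rose by 1.46 after ligation (SE 0.12, 2.75-fold, adjusted p = 5.26e-05). Il18r1 and Il18rap encode the chains of the interleukin-18 receptor. Il18r1 read 5.28, 5.49 and 4.98 in sham, 6.56, 7.04 and 6.35 in CBDL, and 5.60, 5.45 and 6.02 in norUDCA-fed CBDL. Il18rap read 4.78, 5.35 and 5.18 in sham, 6.77, 7.17 and 6.18 in CBDL, and 5.53, 5.55 and 5.38 in norUDCA-fed CBDL. For both chains CBDL was above every other array, while the fed kidneys reached down to the sham range for Il18r1 and lay just above it for Il18rap. Il18r1 rose by 1.40 (SE 0.21, adjusted p = 0.00116) and Il18rap by 1.60 (SE 0.23, adjusted p = 0.000895), with the sham mean of Il18rap dim at 5.10. The decoy receptor gene Il1r2 was mostly dim, with 5.69 on CBDL_165 as its highest value, and was not called. Il1rap, the accessory chain that several receptors of the family share, differed by 0.01 (adjusted p = 0.942).

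**Figure D2:**
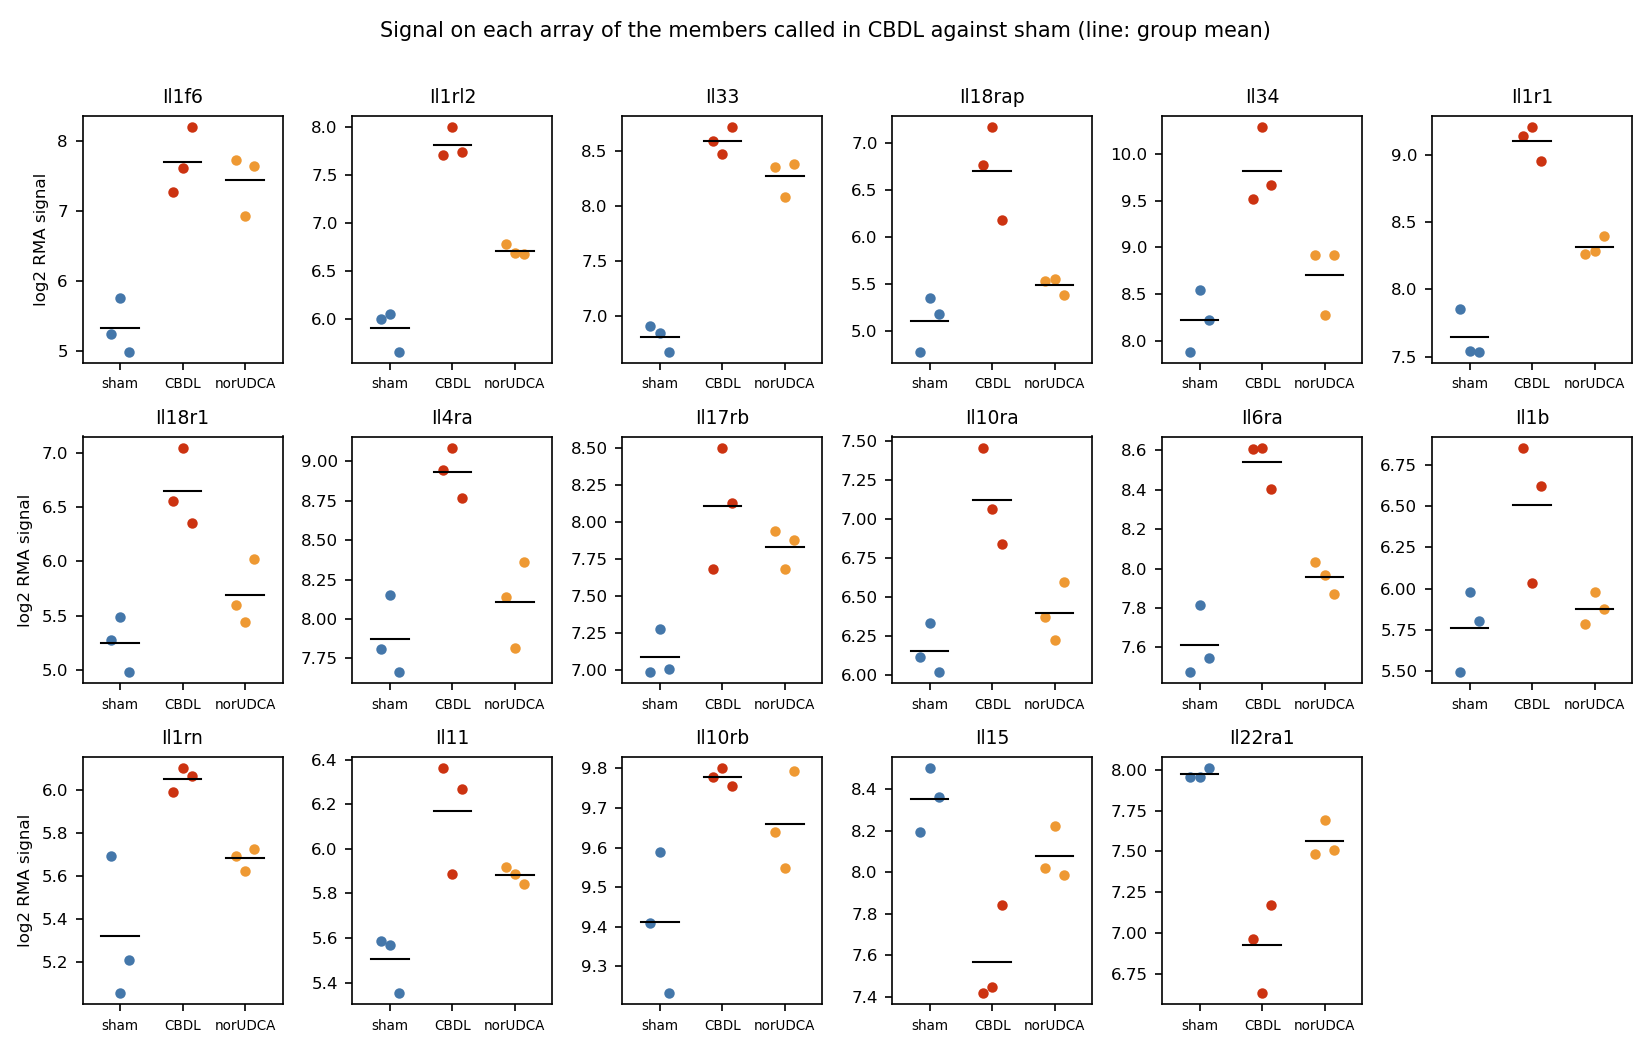
Log2 signal on each of the 9 arrays for the genes called in at least 1 comparison. Each point is 1 array, the bar is the mean of the 3 arrays of a group, and the panels have separate vertical axes. Il1f6 and Il33 stay high in norUDCA-fed CBDL, whereas Il1r1, Il1rl2, Il18r1 and Il18rap lie lower there than in CBDL.

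Of these receptor genes, Il1r2, Il1r1, Il1rl2, Il1rl1, Il18r1 and Il18rap follow each other in this order on mouse chromosome 1 among the protein-coding genes of RefSeq (GRCm38.p6). Of the 5 that were measured, 4 rose after ligation, where 10.3% of all genes rose. The same 4 were lower in norUDCA-fed CBDL than in CBDL, where 3.2% of all genes were. Il1r2, which was not called, differed by 0.43 and -0.57 in these comparisons. On chromosome 2 the genes Il1f8, Il1f9, Il1f6, Il1f5, Il1f10 and Il1rn are neighbours in the same way. All 6 were measured, and only Il1f6 and Il1rn rose. The sequence just upstream of the starts of the 4 called receptor genes is given below. That of Il33, the cytokine gene with the smallest adjusted p, is added. Each sequence is the 250 bases before the RefSeq start furthest upstream (GRCm38.p6, plus strand, 5′ to 3′), and capitals mark a match to the STAT6 motif TTCNNNNGAA.
Il1r1, chr1:40224830-40225079: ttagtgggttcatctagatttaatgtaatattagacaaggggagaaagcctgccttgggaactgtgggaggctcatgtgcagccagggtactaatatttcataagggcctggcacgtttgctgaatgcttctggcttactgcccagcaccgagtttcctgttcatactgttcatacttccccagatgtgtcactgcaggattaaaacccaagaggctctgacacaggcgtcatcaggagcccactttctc
Il1rl2, chr1:40324339-40324588: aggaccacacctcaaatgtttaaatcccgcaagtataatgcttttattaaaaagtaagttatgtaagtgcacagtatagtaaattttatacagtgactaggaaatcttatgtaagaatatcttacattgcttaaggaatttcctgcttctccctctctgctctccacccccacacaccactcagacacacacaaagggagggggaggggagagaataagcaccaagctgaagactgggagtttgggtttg
Il18r1, chr1:40465302-40465551: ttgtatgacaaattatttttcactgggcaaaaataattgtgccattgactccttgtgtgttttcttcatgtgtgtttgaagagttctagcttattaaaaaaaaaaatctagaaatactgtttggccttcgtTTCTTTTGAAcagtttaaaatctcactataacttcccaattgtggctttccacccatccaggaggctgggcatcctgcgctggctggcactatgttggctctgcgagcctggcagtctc
Il18rap, chr1:40515112-40515361: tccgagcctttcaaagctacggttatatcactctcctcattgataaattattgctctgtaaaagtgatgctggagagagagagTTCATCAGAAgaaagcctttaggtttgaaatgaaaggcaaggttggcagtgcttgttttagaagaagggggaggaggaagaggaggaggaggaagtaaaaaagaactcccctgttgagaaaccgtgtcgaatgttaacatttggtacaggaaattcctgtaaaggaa
Il33, chr19:29924863-29925112: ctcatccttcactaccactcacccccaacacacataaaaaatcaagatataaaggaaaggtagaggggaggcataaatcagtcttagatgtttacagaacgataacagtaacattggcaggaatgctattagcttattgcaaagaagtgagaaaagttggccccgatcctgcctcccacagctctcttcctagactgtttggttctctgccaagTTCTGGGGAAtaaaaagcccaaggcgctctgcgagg

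The windows of Il18r1, Il18rap and Il33 held 1 match each, starting at positions -119, -167 and -36 relative to the gene's start, and those of Il1r1 and Il1rl2 held none. Promoters of 61 of the 78 genes were found in the RefSeq table. The STAT6 motif was present on either strand in 10 of these 61 (16.4%) and in 5.9% of the 27025 promoters of the table. It was present in 3 of the 11 matched genes that rose after ligation. The STAT motif TTCNNNGAA was found in 7 of the 61 (11.5%) against 7.1% of all promoters, and in 0 of the 11. The AP-1 motif TGACTCA was found in 10 of the 61 (16.4%) against 4.4%, and 2 of the 11 held it, Il17rb and Il1rn. The kappaB motif was found in 3 of the 61 (4.9%) against 3.7%, and in 0 of the 11. A STAT6 match can overlap a match to another motif, and a match describes these letters and not the binding of a factor.

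**Figure D3:**
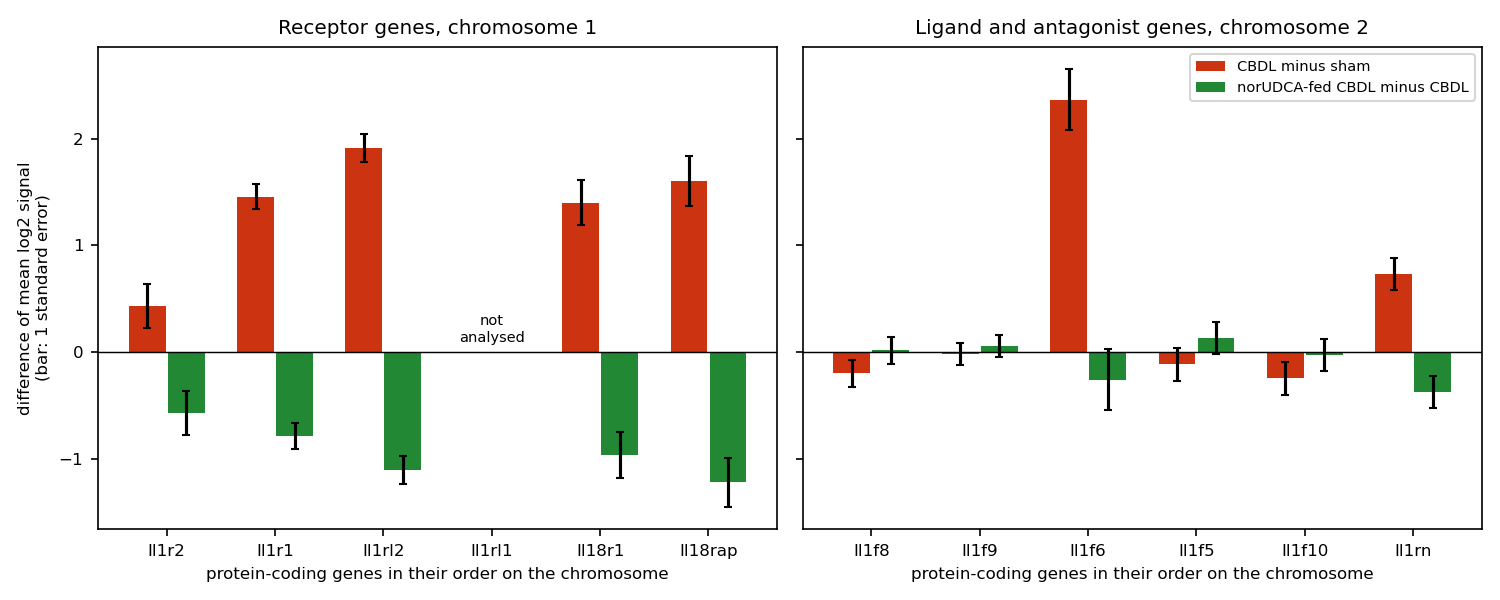
Change in log2 signal for the neighbouring interleukin-1 family genes, drawn in their order on chromosome 1 (receptors) and chromosome 2 (ligands and antagonists). Bars are differences of group means, red for CBDL minus sham and green for norUDCA-fed CBDL minus CBDL, and lines are 1 standard error to either side. In the receptor row Il1r1, Il1rl2, Il18r1 and Il18rap rose in CBDL against sham and were lower in norUDCA-fed CBDL than in CBDL.

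In the gp130 family, named after the signalling chain that interleukins 6 and 11 share, 2 of 8 genes rose after ligation. That was 25%, where 10.3% of all genes rose. Il6ra, the binding chain for interleukin-6, was at 7.47, 7.82 and 7.55 in sham, 8.61, 8.61 and 8.40 in CBDL, and 8.03, 7.97 and 7.87 in norUDCA-fed CBDL. The groups did not overlap, and Il6ra rose by 0.93 (SE 0.12, adjusted p = 0.00044). Il11, a cytokine that acts on epithelium and fibroblasts, read 5.59, 5.57 and 5.36 in sham, 6.36, 5.89 and 6.27 in CBDL, and 5.92, 5.89 and 5.84 in norUDCA-fed CBDL. Both ligated groups were above sham, and Il11 rose by 0.67 in CBDL (SE 0.13, adjusted p = 0.00544). Il6 itself was dim on all 9 arrays, at 3.10 to 3.83, and its difference of 0.27 was not called (adjusted p = 0.316). Il6st, which encodes gp130, was bright, at a mean of 10.96 in sham and 11.22 in CBDL. Its difference of 0.26 did not pass (adjusted p = 0.0723), although the arrays did not overlap. Il6st passed under 5 of 19 alternatives, and its difference was 0.15 after centring arrays on their median (adjusted p = 0.229) and 0.51 after quantile normalization (adjusted p = 0.00187).

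Of 16 genes of the common gamma chain family, which here counts interleukin-13 and its receptors, 1 rose and 1 fell after ligation. Each is 6.25% of the family, where 10.3% of all genes rose and 11.5% fell. Il4ra, the receptor chain that answers interleukins 4 and 13, was at 7.81, 8.15 and 7.66 in sham, 8.94, 9.09 and 8.77 in CBDL, and 8.14, 7.81 and 8.36 in norUDCA-fed CBDL. CBDL was above both other groups, which overlapped each other. Il4ra rose by 1.06 (SE 0.17, 2.08-fold, adjusted p = 0.00162), whereas its partner Il13ra1 differed by 0.18 (adjusted p = 0.234). Il15, a cytokine that sustains NK and memory T cells and is made by tubular epithelium, was at 8.19, 8.50 and 8.36 in sham, 7.42, 7.45 and 7.84 in CBDL, and 8.02, 8.22 and 7.99 in norUDCA-fed CBDL. The CBDL arrays lay below all others, and Il15 fell by 0.78 (SE 0.14, adjusted p = 0.00296). Il7r, a receptor of lymphocytes, differed by 0.60 (adjusted p = 0.0804). Il2rg, the common chain itself, had no row with a single symbol and was not analysed here.

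In the family of interleukins 10, 20 and 22, 2 of 11 genes rose and 1 fell. That was 18.2% and 9.09%, where 10.3% of all genes rose and 11.5% fell. All 3 were among the 5 receptors, of which 40% rose and 20% fell. Of the 5 ligands 0 were called (0 had an unadjusted p under 0.05 in limma), and all 5 were dim in every group. Il10ra, the specific chain of the interleukin-10 receptor, read 6.11, 6.33 and 6.02 in sham, 7.46, 7.07 and 6.84 in CBDL, and 6.37, 6.23 and 6.6 in norUDCA-fed CBDL. CBDL was above all other arrays, and Il10ra rose by 0.97 (SE 0.17, adjusted p = 0.00257). Il10rb, the chain shared with other receptors, had 9.41, 9.59 and 9.23 in sham, 9.78, 9.80 and 9.75 in CBDL, and 9.64, 9.55 and 9.79 in norUDCA-fed CBDL. Its rise of 0.37 (SE 0.11, adjusted p = 0.0447) was the smallest called, and the call ended on leaving out any 1 array other than sham_159 (adjusted p up to 0.139). Il22ra1, the epithelial chain of the interleukin-22 receptor, stood at 7.96, 7.96 and 8.01 in sham, 6.97, 6.64 and 7.17 in CBDL, and 7.49, 7.69 and 7.51 in norUDCA-fed CBDL. The groups did not overlap, and Il22ra1 fell by 1.05 (SE 0.14, 2.07-fold, adjusted p = 0.000504). The ligand genes Il10 and Il22 were dim in each group and differed by -0.05 and -0.11, neither of which was called.

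Of 11 genes of the interleukin-17 family 1 rose (9.09%, where 10.3% of all genes rose). The gene was Il17rb, a receptor for interleukins 17B and 25. It was at 6.98, 7.27 and 7.01 in sham, 7.68, 8.50 and 8.13 in CBDL, and 7.94, 7.68 and 7.88 in norUDCA-fed CBDL. Both ligated groups were above sham and overlapped each other, and the rise in CBDL was 1.02 (SE 0.19, 2.02-fold, adjusted p = 0.00367). Il17ra, the shared receptor chain of the family, had 8.04, 8.32 and 8.45 in sham, 7.89, 7.91 and 7.91 in CBDL, and 7.63, 7.73 and 7.89 in norUDCA-fed CBDL. Its values in ligated kidneys lay under those of sham, but neither the difference of -0.36 in CBDL (adjusted p = 0.0606) nor that of -0.52 in norUDCA-fed CBDL (adjusted p = 0.0532) passed. The cytokine gene Il17a differed by -0.39 (adjusted p = 0.094).

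Il34 encodes a second ligand of the macrophage receptor CSF1R and is made by tubular cells. It was at 7.88, 8.55 and 8.23 in sham, 9.52, 10.29 and 9.66 in CBDL, and 8.92, 8.28 and 8.92 in norUDCA-fed CBDL. CBDL was above both other groups, which overlapped, and Il34 rose by 1.60 (SE 0.25, 3.04-fold, adjusted p = 0.00142). None of the 6 genes of the interleukin-12 and 23 family and none of the 4 of the common beta chain family was called by limma (unadjusted p under 0.05 in 1 and 0 of them). The 61 genes called in no comparison differed between CBDL and sham by -0.49 (Il5) to 0.83 (Il1a), and 31 of them were dim in all groups.

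The comparison of norUDCA-fed CBDL with CBDL addresses what feeding before ligation does to these transcripts. In the fed kidneys 8 of the 78 genes were lower (10.3%, where 3.2% of all genes were) and 1 was higher (1.28%, where 3.61% were). Receptors made up 7 of the 8, namely Il18rap, Il1rl2, Il18r1, Il4ra, Il1r1, Il10ra and Il6ra, and the remaining gene was the ligand Il34. The gene that was higher was Il22ra1. As after ligation, 0 of the 31 genes dim in all groups were called. The comparisons of each ligated group with sham and with each other share arrays, so their values are set side by side without a measure of likeness. The median change was -0.11 over the 78 genes and 0.00 over all genes.

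The largest difference was that of Il18rap, which fell by 1.22 (SE 0.23, 2.33-fold, adjusted p = 0.0162) in the fed kidneys. Il34 fell by 1.11 (adjusted p = 0.0297), Il1rl2 by 1.10 (SE 0.13, 2.15-fold, adjusted p = 0.00655) and Il18r1 by 0.96 (adjusted p = 0.0271). The smaller decreases were 0.83 for Il4ra (adjusted p = 0.0211), 0.78 for Il1r1 (adjusted p = 0.00883), 0.72 for Il10ra (adjusted p = 0.0337) and 0.58 for Il6ra (adjusted p = 0.0194). The fed and unfed ligated arrays of these 8 genes did not overlap. The genes were picked for that same difference, so this adds no support to the calls. Il22ra1 rose by 0.64 (SE 0.14, adjusted p = 0.0238). These calls depended on single arrays more than those of ligation did, and those of Il1r1 and Il1rl2 were kept whichever of the 9 arrays was left out. With variances that were not moderated none of the 9 calls was kept, those of Il1r1 and Il1rl2 ending at adjusted p = 0.0587 and 0.0576. Without CBDL_164, norUDCA_CBDL_172 or norUDCA_CBDL_175, these 2 alone were called. Without CBDL_165 or norUDCA_CBDL_179 the count was 4, and without CBDL_170 it was 13. The call of Il10ra also ended without sham_158 (adjusted p = 0.0551). With sham_159 and CBDL_165 both left out, 5 genes were called, all lower, and with only the 6 arrays compared in the fit 5 were.

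The other genes that ligation changed were not called between the fed and unfed ligated kidneys. Il1f6 differed by -0.26, with a 95% interval of -0.90 to 0.39 (adjusted p = 0.737), and Il33 by -0.32, with an interval of -0.59 to -0.05 (adjusted p = 0.165). The interval of Il17rb ran from -0.69 to 0.15 around a difference of -0.27 (adjusted p = 0.524). Il1b differed by -0.63 (adjusted p = 0.103) and Il15 by 0.51 (adjusted p = 0.0621), each with arrays that did not overlap between the groups. Il1b passed with array weights (adjusted p = 0.0153), without CBDL_165 (adjusted p = 0.0282) and with sham_159 and CBDL_165 both left out (adjusted p = 0.028), and its adjusted p reached 0.293 without CBDL_164. Il15 passed under 6 of 19 alternatives, among them centring of arrays on their median (adjusted p = 0.036), and its adjusted p ranged from 0.0164 without CBDL_170 to 0.208 without norUDCA_CBDL_175. Il1rn differed by -0.37 (adjusted p = 0.205), Il11 by -0.29 (adjusted p = 0.275) and Il10rb by -0.12 (adjusted p = 0.681).

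**Figure D4:**
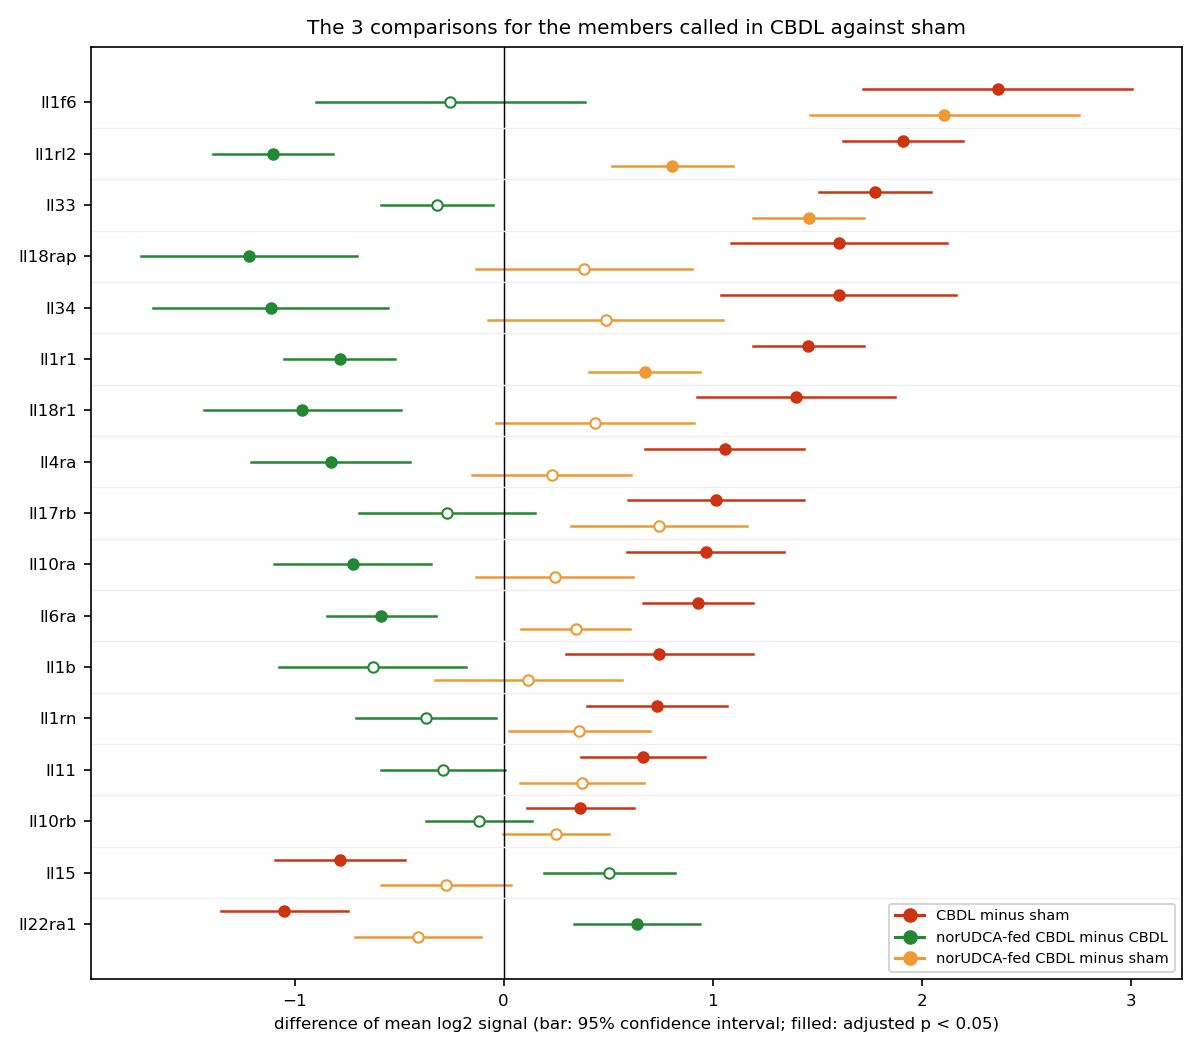
Change in log2 signal in each of the 3 comparisons for the 17 genes called after ligation, with 95% confidence intervals (n = 3 arrays per group). Filled points passed the test. Il1f6 at -0.26 and Il33 at -0.32 have open points in norUDCA-fed CBDL against CBDL and lie above 1 in both comparisons with sham, while Il22ra1 has the opposite sign to the receptors that fell with feeding.

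Against sham, 4 of the 78 genes were higher in norUDCA-fed CBDL (5.13%, where 1.82% of all genes were) and 0 were lower (where 1.37% of all genes were), with 4 lower at an unadjusted p under 0.05 in limma. The 4 were the interleukin-1 family genes Il1f6, Il33, Il1rl2 and Il1r1. Il1f6 rose by 2.11 (SE 0.29, 4.31-fold, adjusted p = 0.00629) and Il33 by 1.46 (SE 0.12, 2.75-fold, adjusted p = 0.000614), and both calls were kept whichever array was left out. With variances that were not moderated the call of Il33 alone was kept, and that of Il1f6 ended (adjusted p = 0.0662). Il1rl2 rose by 0.81 (adjusted p = 0.0112) and Il1r1 by 0.67 (adjusted p = 0.0166). The call of Il1rl2 ended without norUDCA_CBDL_172 or norUDCA_CBDL_179 (2 genes called in each case, adjusted p of Il1rl2 up to 0.0614). The call of Il1r1 ended without either of those, sham_159, sham_160 or norUDCA_CBDL_175 (adjusted p up to 0.0891). The count was 6 without sham_158. Il17rb differed by 0.75 (adjusted p = 0.0696). After centring each array on its median, 4 genes were higher and 2 lower.

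Genes of other names that act beside the interleukins were described from lists chosen by function. Of 17 genes of interleukin-1 and inflammasome signalling, 6 rose and 2 fell after ligation, with a median of 0.15. That was 35.3% and 11.8% of the list, where 10.3% of all genes rose and 11.5% fell. Irak3, which restrains signalling of the family, went from 6.46, 6.57 and 6.24 in sham to 7.91, 7.86 and 7.96 in CBDL, with 7.21, 7.20 and 7.39 in norUDCA-fed CBDL. Its 3 groups were separate, and it rose by 1.49 in CBDL. The others that rose were Casp4 at 1.29, Aim2 at 0.76, Gsdmd at 0.62, Casp1 at 0.60 and the adaptor gene Myd88 at 0.35, while Nlrc4 at -0.83 and the inhibitory receptor gene Sigirr at -0.57 fell. In norUDCA-fed CBDL against CBDL 3 of the 17 were lower (17.6%, where 3.2% of all genes were). They were Irak3 at -0.64, Aim2 at -0.57 and Myd88 at -0.37, and Sigirr was higher at 0.50. Against sham, Irak3 at 0.84 was higher and Nlrc4 at -0.91 lower in the fed kidneys.

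Of 18 partner genes of the gp130, common beta chain and related systems, 10 rose after ligation and 0 fell, with a median of 0.60. The share that rose was 55.6%, where 10.3% of all genes rose. Osmr, the oncostatin M receptor that pairs with gp130, read 8.10, 8.55 and 7.83 in sham, 10.53, 10.45 and 10.28 in CBDL, and 9.43, 9.43 and 9.44 in norUDCA-fed CBDL. These groups were separate, and Osmr rose by 2.26 in CBDL. Csf2rb2 rose by 2.07, Clcf1 by 1.98, Csf1, the other ligand of CSF1R, by 1.38, Lif by 1.29, Csf2ra by 1.02, Csf3r by 0.89, Csf2rb by 0.85, Crlf2 by 0.62 and Csf1r by 0.58. In the fed kidneys 6 of the 18 were lower than in CBDL (33.3%, where 3.2% of all genes were). They were Clcf1 at -1.06, Osmr at -0.98, Csf1 at -0.94, Lif at -0.86, Csf1r at -0.65 and Crlf2 at -0.50. Osmr, Clcf1 and Csf2ra were also called higher in the fed kidneys than in sham. Of 21 JAK and STAT genes and their feedback inhibitors, 4 rose after ligation, Socs2 at 2.11, Socs3 at 1.71, Stat3 at 1.09 and Jak2 at 0.46, and 2 fell, Stat5b at -0.62 and Socs7 at -0.34. That was 19% and 9.52% of the list, where 10.3% of all genes rose and 11.5% fell. In fed against unfed ligated kidneys 1 of the 21 was lower (4.76%, where 3.2% of all genes were), and changes ran from -1.19 to 0.41. Among them, Socs3, the inhibitor that STAT3 induces, changed by -0.97. Stat3 at 0.86 and Socs3 at 0.74 were higher in the fed kidneys than in sham (9.52%, where 1.82% of all genes were). Of 4 genes of interleukin-17 signalling, 1 rose after ligation, Nfkbiz by 1.81 (25%, where 10.3% of all genes rose). Nfkbiz changed by -0.85 with feeding.

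Markers of cell types that make or answer interleukins were read on the same arrays, and lists are given by their summed signal, taken to log2. The 10 macrophage and myeloid markers lay between 10.5 and 11.1 in sham, 12.3 and 13.3 in CBDL, and 11.6 and 11.7 in norUDCA-fed CBDL. All 10 rose after ligation, where 10.3% of all genes rose. With feeding 9 were lower, where 3.2% of all genes were. In fed kidneys 8 were higher than in sham, where 1.82% of all genes were. The 4 fibroblast markers lay between 10.9 and 11.4 in sham, 12.6 and 12.9 in CBDL, and 11.9 and 12.2 in norUDCA-fed CBDL, and all 4 rose after ligation. The 4 proximal tubule markers lay between 14.6 and 14.7 in sham, 12.8 and 13.8 in CBDL, and 14.2 and 14.4 in norUDCA-fed CBDL. All 4 fell after ligation, where 11.5% of all genes fell, and were higher with feeding, where 3.61% of all genes were. The macrophage and fibroblast sums were highest in CBDL and lowest in sham. The group means of every interleukin gene that rose after ligation had that order too, so it sets none of them apart. The proximal tubule sum was ordered like Il22ra1 and Il15, lowest in CBDL and highest in sham. The endothelial marker Kdr and the podocyte marker Nphs1 had that order too, so it does not single out the proximal tubule. The distal tubule marker Slc12a3 was also lowest in CBDL but highest in the fed kidneys. The endothelial markers Pecam1 and Cdh5 went the other way and were highest in CBDL. The part of these cell types in those results was not tested.

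The 10 T and NK cell markers lay between 9.0 and 9.1 in sham, 8.4 and 9.4 in CBDL, and 8.7 and 9.0 in norUDCA-fed CBDL. Limma called 0 of the 10 in CBDL against sham, where 21.8% of all genes were called, and 0 had an unadjusted p under 0.05 there. Of 3 B cell markers Cd79a fell after ligation (33.3%, where 11.5% of all genes fell). The sum lay between 7.0 and 7.1 in sham and 6.6 and 6.7 in CBDL. Of 8 neutrophil markers 2 rose after ligation, Csf3r and Cxcr2 (25%, where 10.3% of all genes rose). The sums were 8.0 to 8.1 in sham and 8.2 to 8.6 in CBDL. Those 2 were the brightest of the list, so the sum follows them most. The others were not called: S100a8, S100a9 and Ly6g differed by 0.29, 0.07 and 0.14, and Mpo, Elane and Camp by -0.07, -0.29 and -0.25. Of these, all but Elane were dim in every group. The 5 mast cell markers and the 2 markers of innate lymphoid cells of type 2, which carry the receptor for interleukin-33, included none called by limma in CBDL against sham (2 and 0 had an unadjusted p under 0.05). The latter 2, Gata3 and Rora, were already bright in sham, at means of 7.88 and 8.24. A change in few lymphoid cells may not show at such levels, so they do not tell whether those cells changed.

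**Figure D5:**
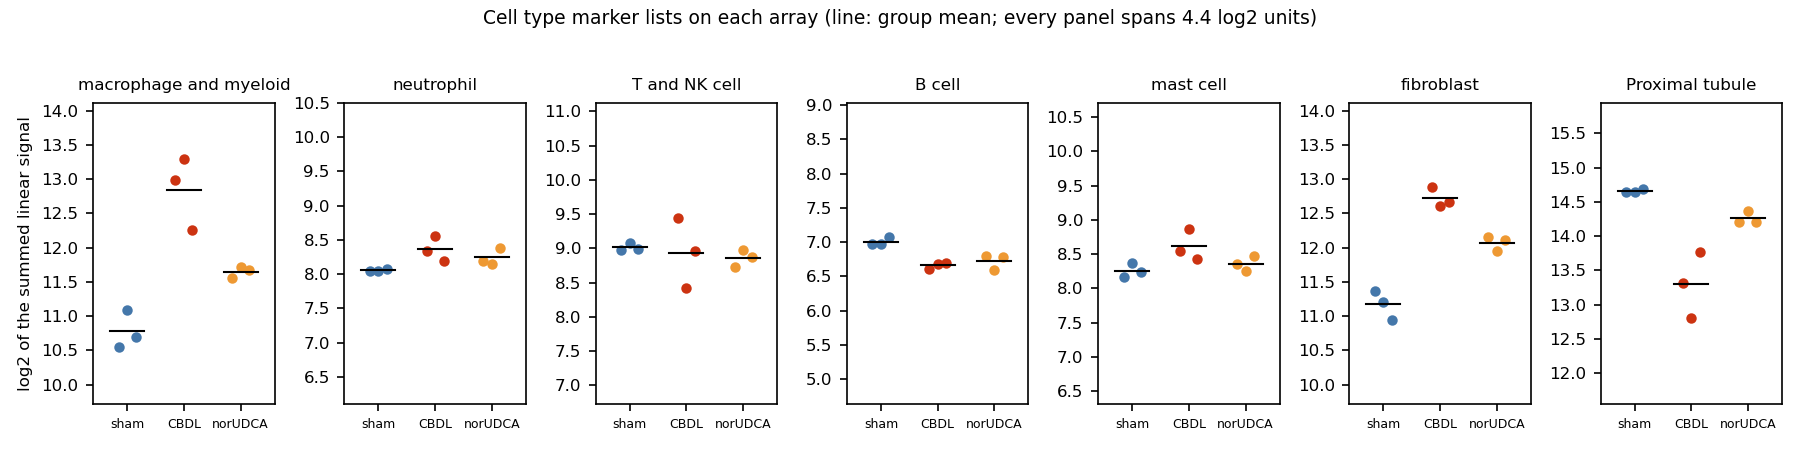
Summed signal of each marker list, taken to log2, on each of the 9 arrays by group. Lines are group means, and every vertical axis spans the same log2 range. The macrophage and fibroblast lists are highest in CBDL, the proximal tubule list is lowest there, and the T and NK cell list overlaps between the groups.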

How the data were processed

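The deposited values are log2 signals per array row, made by the authors with RMA in Partek 6.6, per the submitters' processing notes. Per the labels' protocols, TRIzol was used to isolate RNA and the Affymetrix WT PLUS kit to label it. The array model, genome build and any batch are not given in the sources used here. Of 41345 rows, 23521 carry 1 gene symbol in the platform annotation, 1814 several and 16010 none. The brightest row per symbol over the 9 arrays gave 22180 genes, among them 80 rows of 78 interleukin genes, of which Il1rap has 3. Values were used without further scaling.

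limma 3.58.1 in R 4.3.3 was fitted with 1 mean per group on all 9 arrays, with moderated variances (6 residual and 3.77 prior degrees of freedom), and was tested on simulated data. The median SE of a difference was 0.136, which the number of arrays limits. Named genes are those called in any comparison, and a set of 27 well-known ones, of which 3 (Il1rl1, Il2rg and Il11ra1) have no row with a single symbol. Il1f5, Il1f8, Il1f9, Il1f10, Il5 and Il1r2 were named after their values were seen. The members and all lists were chosen with earlier results of these data known. Alternatives were array centring, quantile normalization, a trend, array weights, unmoderated variances, the 6 arrays compared, a filter on dim genes and leaving out arrays.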

Additional observations from a re-analysis of the deposited data

How the results depend on the processing

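In CBDL against sham the count of called interleukin genes lay between 15 and 22 under every alternative run, against 17, and between 15 and 20 on leaving out 1 array. In norUDCA-fed CBDL against CBDL, 9 genes became 5 with only the 6 arrays compared, 0 with variances that were not moderated (in the moderated limma fit, 3 higher and 17 lower had an unadjusted p under 0.05), and 5 with sham_159 and CBDL_165 both left out, an alternative chosen after seeing the data. Leaving out 1 array gave 2 to 13. In norUDCA-fed CBDL against sham, 4 genes became 8 with array weights and 1 with variances that were not moderated, and 2 to 6 on leaving out 1 array. The causes were not tested.

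Changes that turned sign were of genes not called in that comparison. In CBDL against sham, Il1rap was -0.091 after centring, -0.057 after quantile normalization and -0.040 to 0.086 on leaving out 1 array. Il10 was 0.082 after quantile normalization and -0.15 to 0.078 on leaving out 1 array, and Il22 ranged from -0.20 to 0.017. In norUDCA-fed CBDL against CBDL, Il22 was 0.026 after centring. With sham_159 and CBDL_165 both left out, Il22 was 0.035, Il6 -0.0056, Il10 0.028 and Il17a -0.023. On leaving out 1 array, Il22 ranged from -0.078 to 0.035, Il6 from -0.048 to 0.29, Il10 from -0.20 to 0.028 and Il17a from -0.023 to 0.17. In norUDCA-fed CBDL against sham, Il13ra1 was -0.0034 after centring, and Il7r -0.014 with both arrays left out. On leaving out 1 array, Il13ra1 ranged from -0.030 to 0.094, Il1b from -0.014 to 0.23, Il7r from -0.014 to 0.10 and Il18 from -0.18 to 0.051.

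Signals of the 31 dim genes are not shown to be above background, so that their small differences show no lack of change.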

Other observations

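CBDL_165 held the highest value of the 9 arrays for several interleukin-1 family genes, called or not. Il1a was 5.67 there against at most 4.57 elsewhere, and Il1r2 was 5.69 against at most 4.98. Il18 was 6.26 there against at most 5.75, Il18rap 7.17 against at most 6.77, and Il18r1 7.04 against at most 6.56. Il1r1, Il1rl2 and Il1rn were highest on CBDL_165 as well. The remaining genes of the family were not highest there. Il1b was at 6.04 on CBDL_165 against 6.85 on CBDL_164 and 6.62 on CBDL_170, Il1f6 was at 7.61 against 8.19 on CBDL_170, and Il33, at 8.47, was lowest of the 3 CBDL arrays there. Il1f10, at 5.33, was lowest of all 9. On the same array the summed macrophage and myeloid markers were at 13.3 and the summed proximal tubule markers at 12.8, the highest and the lowest of the 9 arrays. These genes were picked after their values were seen, and no test was made.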
